A study of Caenorhabditis elegans with 9 samples.

Results

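Embryos expressing an ATPase mutant of the condensin subunit DPY-27 were compared with embryos expressing the intact protein, both as GFP fusions. The comparison held 6 of the 9 mRNA-seq libraries of the series: 3 libraries of DPY-27(EQ)::GFP and 3 of DPY-27::GFP, chosen by strain label, with the 3 wild-type libraries kept out of the fit. The labels give the transgenes as hsp::dpy-27[EQ-TR]::gfp and hsp::dpy-27::gfp. What TR stands for is not explained in the sources used here, so a further difference between the transgenes cannot be told. Per the study's methods, the intact transgene was a single copy on chromosome II under the heat-shock promoter of hsp-16.41, with the dpy-27 3′ UTR, and the EQ protein carries a glutamate-to-glutamine change in the Walker B motif. Endogenous dpy-27 was left in place in both strains, so all embryos also made untagged DPY-27. Parents of every library, wild type included, had a 30 min shock at 35°C and 2 h to recover before mixed embryos were taken. The RNA is from whole embryos, so fewer cells of a type and less RNA per cell cannot be told apart. No source used here says that the replicates came from separate cultures, and the p-values then measure only the spread between these libraries.

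Condensins are rings built on a pair of SMC ATPases, and the Walker B glutamate is needed to hydrolyse the ATP bound between them. In C. elegans the specialised complex condensin DC, in which DPY-27 replaces the SMC-4 subunit of the other condensins, binds both X chromosomes of hermaphrodites and lowers their transcription. The comparison therefore asks whether embryos that carry the hydrolysis mutant beside the endogenous protein express any gene, or the X chromosome as a whole, differently from embryos that carry the intact fusion.

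No gene was called between the strains. Of 12137 genes tested, 0 (0%) had a Benjamini-Hochberg adjusted p under 0.05 in edgeR's quasi-likelihood test, and the smallest adjusted p was 0.9999. At an unadjusted p under 0.05 there were 40 genes (0.33%), 28 higher and 12 lower in DPY-27(EQ)::GFP. Evenly spread p-values would place a share of 0.05 of the genes there, so the p-values ran high and these 40 genes do not stand out. Other tools also called 0 genes: at an unadjusted p under 0.05 DESeq2 gave 16 higher and 20 lower, limma-voom 32 higher and 15 lower, and limma on log2(TPM + 1), where TPM is a length-scaled level, 38 higher and 19 lower. The data bounded most differences all the same. For 9849 genes (81.1%) the whole 95% interval of the log2 fold change lay inside 2-fold in either direction, and for 4800 genes (39.5%) it lay inside 1.5-fold. These intervals are per gene and are not adjusted for the number of genes. They rest on the same p-values, which ran high, so their stated 95% coverage is uncertain.

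Libraries of DPY-27::GFP differed more among themselves, on average, than they differed from DPY-27(EQ)::GFP. Reads on genes numbered 7573682 to 21281027 in DPY-27(EQ)::GFP libraries and 7062182 to 9582838 in DPY-27::GFP libraries. Pairs of libraries were compared by the root mean square difference of log2 CPM (read counts scaled to the normalised library size) over the genes tested. This distance was 0.361 to 0.455 within DPY-27(EQ)::GFP, 0.358 to 0.636 between the strains (mean 0.476) and 0.528 to 0.791 within DPY-27::GFP (mean 0.633), and 6 of the 9 pairs between strains were closer than any DPY-27::GFP pair. The closest pair of all crossed the strains: DPY-27(EQ)::GFP replicate 1 and DPY-27::GFP replicate 2. The farthest pair was within one strain, DPY-27::GFP replicates 2 and 3. On the first principal component, which held 57.0% of the variance, DPY-27(EQ)::GFP libraries lay at 21.4, -13.5 and 4.89, all inside the span of the DPY-27::GFP libraries at -9.39, 41.1 and -44.4. For 6046 genes (49.8%) all 3 DPY-27(EQ)::GFP libraries lay inside the range of the 3 DPY-27::GFP libraries.

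**Figure D1:**
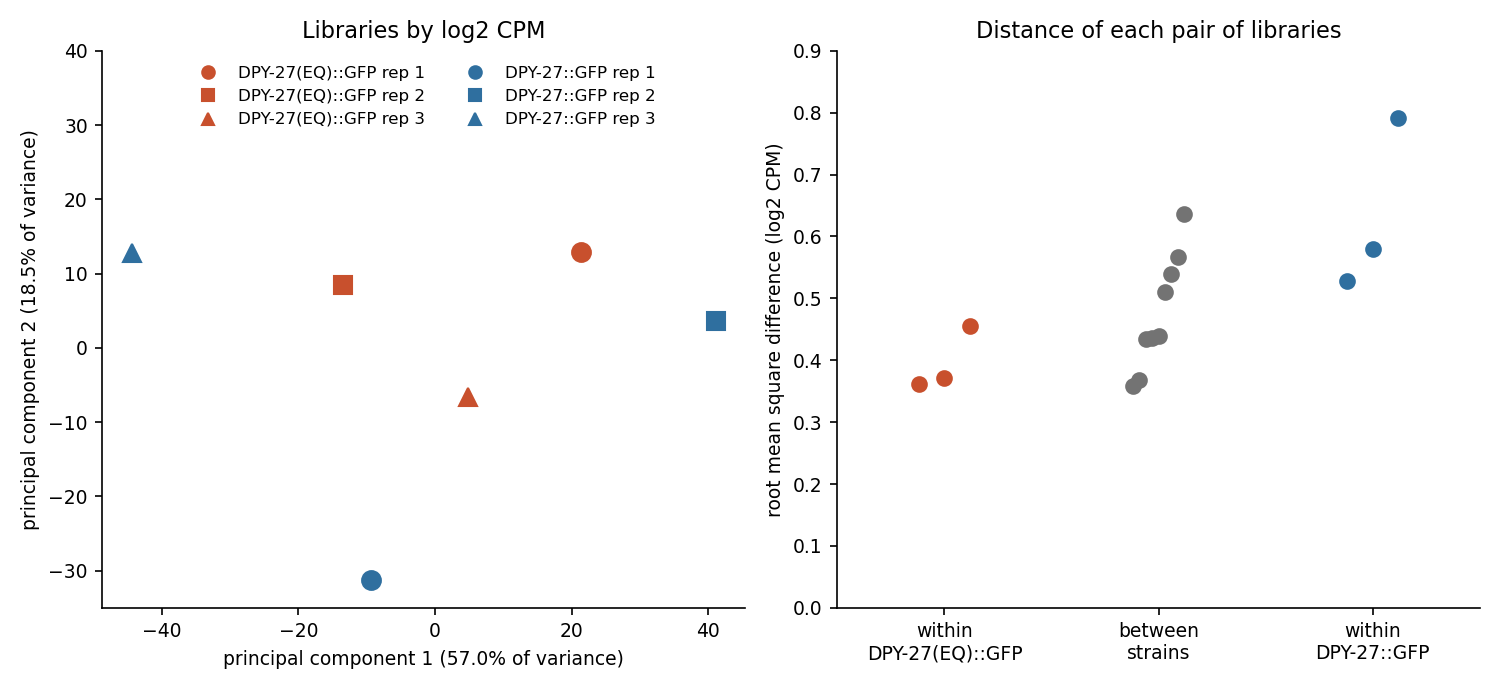
Left, the 6 libraries on the first 2 principal components of log2 CPM; right, the root mean square log2 CPM difference of each pair of libraries, within DPY-27(EQ)::GFP (3 pairs), between strains (9 pairs) and within DPY-27::GFP (3 pairs). On the first component the DPY-27(EQ)::GFP libraries sit between DPY-27::GFP replicates 2 and 3, whose distance of 0.791 is the largest of the 15 pairs. On the second component DPY-27::GFP replicate 1 lies apart from the rest, at -31.2.

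DPY-27::GFP replicate 2 had the most influence on the comparison. Leaving it out still called 0 genes, with a smallest adjusted p of 0.433 in edgeR's test, but raised the genes at an unadjusted p under 0.05 to 590 higher and 764 lower. Leaving out any other library gave 0 calls and at most 88 higher and 170 lower such genes, without DPY-27::GFP replicate 3. DPY-27(EQ)::GFP replicate 3 had the deepest sequencing of the 6 libraries. Its library name prefix is one that the other 5 libraries lack and that the 3 wild-type libraries carry. Without DPY-27(EQ)::GFP replicate 3 the genes at an unadjusted p under 0.05 numbered 24, and 8207 genes had an interval inside 2-fold.

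dpy-27 (R13G10.1) itself lies on chromosome III at 3813535 to 3819661 on the minus strand in WS220. Reads counted on it come from the endogenous gene and can come from either transgene, which the counts do not tell apart. Its level was 599, 519.6 and 913 normalised CPM in DPY-27(EQ)::GFP replicates 1 to 3, against 813, 459.9 and 828 in the DPY-27::GFP replicates. The strains overlapped over nearly their whole range, and each had a replicate 2 lowest. The means were 677 ± 208 and 700.2 ± 208 CPM (SD, n = 3 each), for a log2 fold change of -0.05 with a 95% interval of -0.66 to 0.56. A higher dpy-27 level of more than 1.48-fold, or a lower one to less than 0.635 of the DPY-27::GFP level, therefore lay outside the interval. As plain CPM, scaled to the reads on genes without further normalisation, dpy-27 was at 593, 551 and 883 in DPY-27(EQ)::GFP and 805, 469 and 800.3 in DPY-27::GFP, against 462, 453 and 466 in wild type. All 6 transgenic libraries were above the 3 wild-type libraries on this scale, the lowest by a narrow margin. The highest, DPY-27(EQ)::GFP replicate 3, has the library name prefix of the wild-type libraries. The wild-type libraries also held many more reads outside genes. Reads on no annotated feature numbered 1.05, 1.04 and 1.09 per gene read in wild type, against at most 0.0826 in the transgenic libraries. Whether this difference between the libraries affected the dpy-27 levels was not tested.

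The genes of the other subunits of condensin DC had estimates below 0, none of which passed the test. MIX-1 is the second SMC subunit and is shared by all condensins. Its gene had 295, 323 and 339 CPM in DPY-27(EQ)::GFP, against 516, 297 and 395 in DPY-27::GFP. The log2 fold change was -0.34 (95% interval -0.78 to 0.11, unadjusted p = 0.123 from edgeR) and the strains overlapped. For dpy-26, which encodes the kleisin that closes the ring, the values were 286, 292 and 309.6 in DPY-27(EQ)::GFP and 411, 262 and 376 in DPY-27::GFP (-0.24, interval -0.64 to 0.16). The genes of the HEAT-repeat subunits DPY-28 and CAPG-1 had log2 fold changes of -0.11 each, with intervals of -0.53 to 0.32 and -0.53 to 0.31.

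The recruiters bring the complex to recruitment elements on the X. SDC-2, the hermaphrodite-specific protein that starts the process, has an X-linked gene, which was at 159, 162 and 196 CPM in DPY-27(EQ)::GFP and at 293, 159 and 196 in DPY-27::GFP. The log2 fold change was -0.32 (95% interval -0.82 to 0.17), and it was -0.50 without DPY-27::GFP replicate 2 and -0.06 without DPY-27::GFP replicate 1. One library, DPY-27::GFP replicate 1, stood above the rest. For sdc-3, a zinc finger partner of SDC-2, the values were 89.1, 105 and 118 in DPY-27(EQ)::GFP against 176, 101 and 122 in DPY-27::GFP (-0.35, interval -0.83 to 0.12), again with DPY-27::GFP replicate 1 highest. The zinc finger gene sdc-1 had a log2 fold change of -0.16 (interval -0.58 to 0.26). For dpy-30, whose product also serves the COMPASS histone methyltransferase, it was -0.04 (interval -0.39 to 0.30). dpy-21 encodes the H4K20me2 demethylase of the complex and was at 517, 404 and 521 CPM in DPY-27(EQ)::GFP against 582, 460.3 and 642 in DPY-27::GFP (-0.22, interval -0.62 to 0.17).

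Counted together, 0 of the 10 genes of condensin DC and its recruiters passed the test, 0 had an unadjusted p under 0.05 and all 10 had an interval inside 2-fold, 4 of them inside 1.5-fold. Their median log2 fold change was -0.19, beside -0.01 over all genes tested. All 10 point estimates were below 0, while 48.1% of all genes tested had estimates above 0. This was not particular to the 10. Estimates above 0 numbered 0 of 5 for other condensin subunits, 1 of 13 for cohesin and SMC5/6 and 0 of 6 for H4K20 and H4K16 enzymes. The mean log2 CPM of the 10, after centring each gene on its 6-library mean, was -0.17, -0.13 and 0.05 in DPY-27(EQ)::GFP and 0.37, -0.28 and 0.17 in DPY-27::GFP, so that DPY-27::GFP replicates 1 and 3 were above and replicate 2 below all of DPY-27(EQ)::GFP. Without DPY-27::GFP replicate 2 the median was -0.34, and 6 of the 10 had an unadjusted p under 0.05. In that fit 1354 of all 12207 genes tested had such a p. Without DPY-27::GFP replicate 1 the median was -0.07 and 0 of the 10 had such a p.

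**Figure D2:**
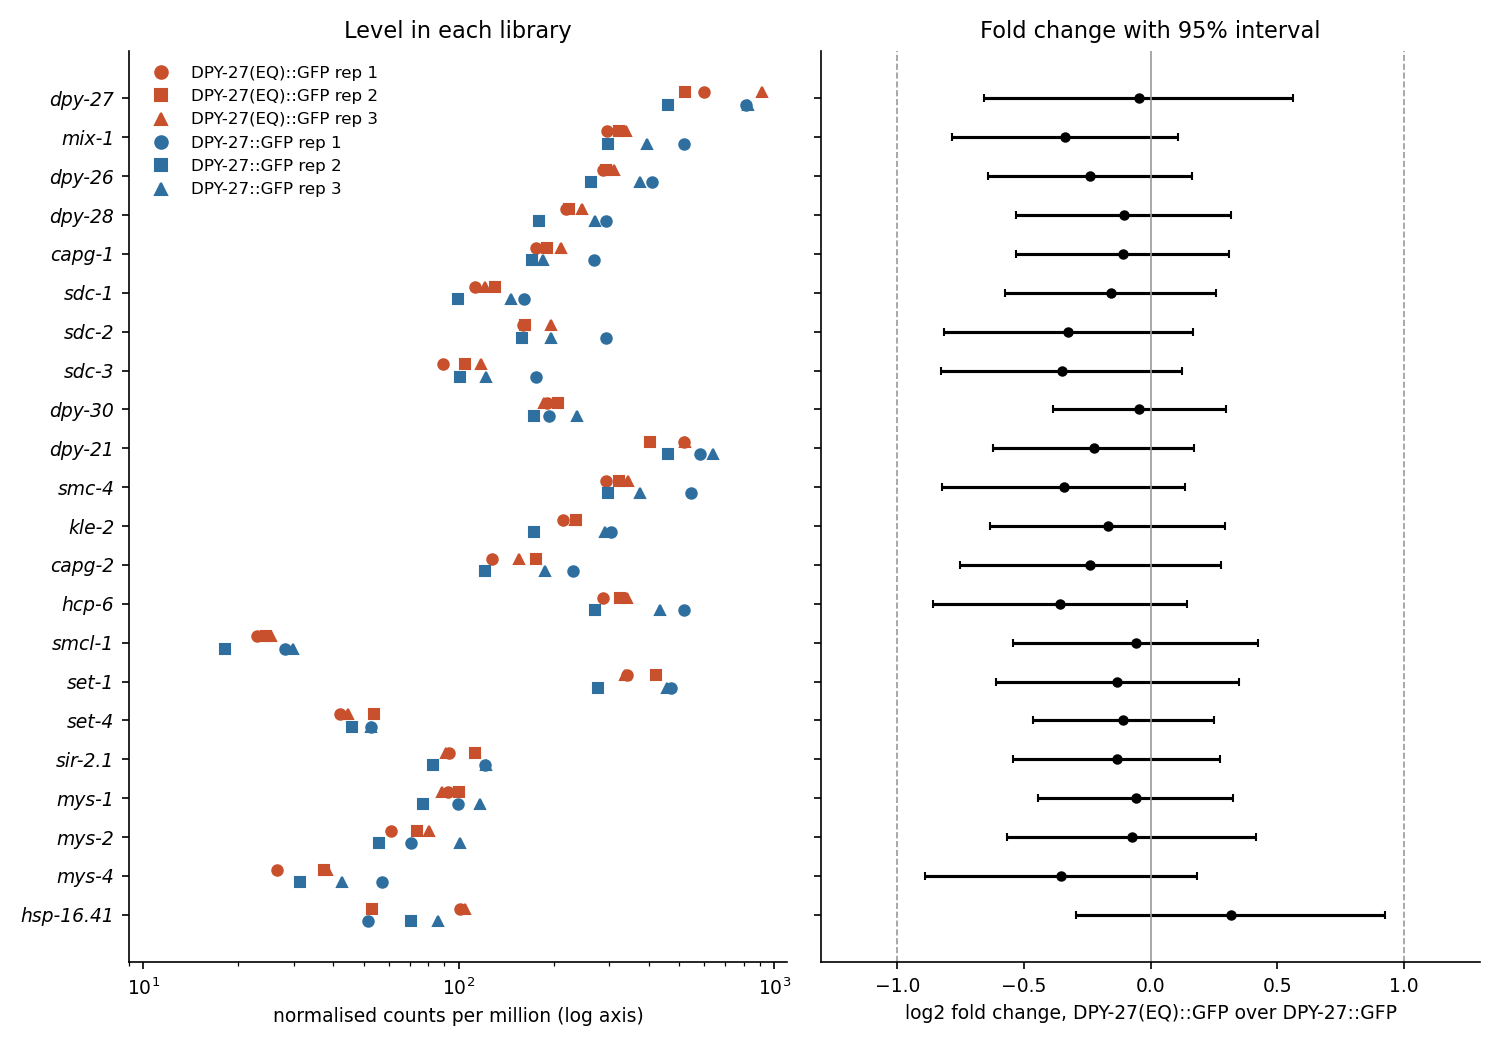
Left, normalised CPM (log axis) of the genes of condensin DC and its recruiters, of other condensins, of H4K20 and H4K16 enzymes and of hsp-16.41 in each library; right, the log2 fold change of DPY-27(EQ)::GFP over DPY-27::GFP (points) with its 95% interval (bars), dashed lines marking 2-fold. Every interval includes 0 and ends inside 2-fold, the lowest end being -0.89 (mys-4) and the highest 0.93 (hsp-16.41).

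Condensins I and II fold the chromosomes of dividing cells. smc-4, the paralog that DPY-27 replaces, had 293, 323 and 344 CPM in DPY-27(EQ)::GFP against 546, 297 and 376 in DPY-27::GFP (-0.34, 95% interval -0.82 to 0.14). The condensin II genes were at -0.17 for kle-2, -0.24 for capg-2 and -0.36 for hcp-6, where the interval was -0.86 to 0.14. A small overlap with exons on the opposite strand makes the counts of mix-1, kle-2, capg-2 and hcp-6 uncertain, since whether counting used strand is not given in the sources used here. smcl-1, an SMC-like gene, was at -0.06 (interval -0.54 to 0.42). All 5 intervals were inside 2-fold, and so were those of all 13 genes of cohesin and the SMC5/6 complex, which hold sister chromatids and repair DNA. Among cohesin and SMC5/6 genes smc-6 had the smallest p below 0 (-0.33, interval -0.73 to 0.07), and coh-1, an alternative cohesin kleisin, had the narrowest interval, -0.28 to 0.34.

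Enzymes of H4K20 methylation and H4K16 acetylation act on histone marks that differ between the X and the autosomes. set-1, the H4K20 monomethyltransferase, was at 340.4, 421 and 337 CPM in DPY-27(EQ)::GFP and 469.6, 276 and 458 in DPY-27::GFP, a log2 fold change of -0.13 (95% interval -0.61 to 0.35). The genes of SET-4, which adds further methyl groups, and of the deacetylase SIR-2.1 were at -0.11 (interval -0.47 to 0.25) and -0.13 (-0.54 to 0.28). The MYST acetyltransferase genes mys-1, mys-2 and mys-4 were at -0.06, -0.07 and -0.35. None of the 6 passed the test and all 6 intervals were inside 2-fold. Exons of mys-1 and sir-2.1 also overlap the opposite strand by a small stretch.

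Other chromatin silencing genes, which include H3K9 and H3K27 methylation factors, gave 17 of 17 intervals inside 2-fold and 11 inside 1.5-fold. The widest estimate was that of let-418, a Mi-2 remodeller, at -0.34 (95% interval -0.80 to 0.12). Genes of sex determination and X counting were less well bounded: of 14 genes 13 were tested and 11 were inside 2-fold. xol-1, the X-linked switch gene that promotes male fate and is kept low in hermaphrodites, had 4.27, 3.49 and 4.13 CPM in DPY-27(EQ)::GFP and 7.92, 3.48 and 6.30 in DPY-27::GFP. Its log2 fold change of -0.56 came with an interval of -1.32 to 0.20, which leaves a more than 2-fold lower level inside it. fox-1, an RNA-binding signal by which X chromosomes are counted, was at 0.03 (interval -0.29 to 0.35).

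The promoter that drives both transgenes is that of hsp-16.41 (Y46H3A.2, chromosome V at 1805232 to 1805874), a small heat shock protein gene. It has close relatives in the same gene family, and reads that match several places were not counted. The gene had 101, 53.1 and 105 CPM in DPY-27(EQ)::GFP against 51.4, 70.8 and 85.97 in DPY-27::GFP. The strains overlapped, and the log2 fold change was 0.32 (95% interval -0.29 to 0.93, unadjusted p = 0.274 from edgeR). Of 8 heat-inducible chaperone genes 5 were tested and 2 were bounded inside 2-fold, with a median interval half-width of 1.01 on the log2 scale. F44E5.5, an Hsp70 gene next to a close copy, ranged over 40.4, 27.9 and 55.6 CPM in DPY-27(EQ)::GFP and 26.5, 43.8 and 121 in DPY-27::GFP. Mean log2 CPM of the 5 genes ranged from -0.64 to 0.56 in DPY-27(EQ)::GFP and from -0.48 to 0.83 in DPY-27::GFP, a wide spread within both strains. Constitutive and organelle chaperones varied less: 22 of 25 genes were inside 2-fold and 15 inside 1.5-fold, and cct-8, a chaperonin subunit gene, had the smallest unadjusted p among those above 0 (0.25, interval -0.15 to 0.65).

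Several lists of developmental genes differed more between DPY-27::GFP libraries than between the strain means. Dividing early embryos are rich in replication, mitosis and germ-granule transcripts, and later embryos in those of muscle, nerve and cuticle. The mean log2 CPM of 19 DNA replication genes was -0.33, 0.12 and 0.02 in DPY-27(EQ)::GFP and 0.19, -0.48 and 0.49 in DPY-27::GFP. The 17 tested P granule and germ cell genes gave -0.32, 0.08 and 0.01 in DPY-27(EQ)::GFP and 0.19, -0.47 and 0.50 in DPY-27::GFP. In both lists DPY-27::GFP replicate 3 was the highest library and replicate 2 the lowest. The order turned round for differentiation genes: 35 body wall muscle genes gave 0.13, -0.23 and 0.10 in DPY-27(EQ)::GFP and -0.04, 0.32 and -0.29 in DPY-27::GFP. For 76 neuropeptide genes the values were 0.29, -0.15 and 0.07 in DPY-27(EQ)::GFP and -0.30, 0.61 and -0.51 in DPY-27::GFP. DPY-27::GFP replicates 2 and 3 thus lay at opposite ends in all 4 lists, and the part of this spread in the results above was not tested.

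Between the strains these lists showed no called gene. Medians of the dividing-embryo lists lay below that of all genes (-0.01), with estimates below 0 for 26 of 29 cell cycle, 17 of 19 replication and 16 of 17 P granule genes. Of 29 cell cycle and mitosis genes 28 were bounded inside 2-fold, with a median log2 fold change of -0.16, and cki-2, a CDK inhibitor gene, was at 27.6, 25.4 and 28.6 CPM in DPY-27(EQ)::GFP against 21.3, 23.97 and 20.2 in DPY-27::GFP (0.32, 95% interval -0.06 to 0.70). Its libraries did not overlap, as was so for 294 genes (2.42%) in this direction and 168 genes (1.38%) in the other. DNA replication had 19 of 19 genes inside 2-fold at a median of -0.19, P granule and germ cell genes 13 of 17 at -0.16, and maternal regulators, RNA and protein factors loaded into the egg, 23 of 25 at a median of -0.004. Without DPY-27::GFP replicate 2, 1354 of all 12207 genes tested had an unadjusted p under 0.05. Among them were 16 of 29 cell cycle genes and 13 of 19 replication genes, with list medians of -0.39 and -0.45. Without DPY-27::GFP replicate 3, 0 of either list had such a p and the medians were 0.02 and -0.03. The direction for cell cycle genes thus rested on that library, as it did for P granule genes (median 0.02 without it). With all 6 libraries, 0 of either list had such a p. Early zygotic regulators, many of them expressed briefly, were poorly bounded: 17 of 23 were tested and 9 were inside 2-fold, with pop-1, the TCF factor of Wnt-directed divisions, at -0.28 (interval -0.73 to 0.16).

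Tissue genes of the later embryo were more often bounded inside 2-fold than early zygotic regulators. For body wall muscle 33 of 35 tested genes were inside 2-fold, for neurons 42 of 47, for endoderm and gut 19 of 21 and for the pharynx 15 of 19. Each of the 4 medians was within 0.04 of 0 on the log2 scale. The pharyngeal organ selector gene pha-4 had 249, 236 and 249.9 CPM in DPY-27(EQ)::GFP and 232, 224 and 256 in DPY-27::GFP (0.05, 95% interval -0.24 to 0.34). All 27 genes of epidermal regulators and junctions were inside 2-fold and 23 inside 1.5-fold. In that list sma-1, the spectrin gene needed for embryo elongation, was at 2146, 2099.7 and 2349 CPM in DPY-27(EQ)::GFP against 3346, 2363 and 2622 in DPY-27::GFP, without overlap (-0.34, interval -0.74 to 0.07, unadjusted p = 0.0923 from edgeR). All 28 Wnt and Notch genes, all 19 cell death genes and all 11 Hox cluster genes had intervals inside 2-fold, and all 10 genes of PAR polarity, which sets the embryo's first axis, did too.

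**Figure D3:**
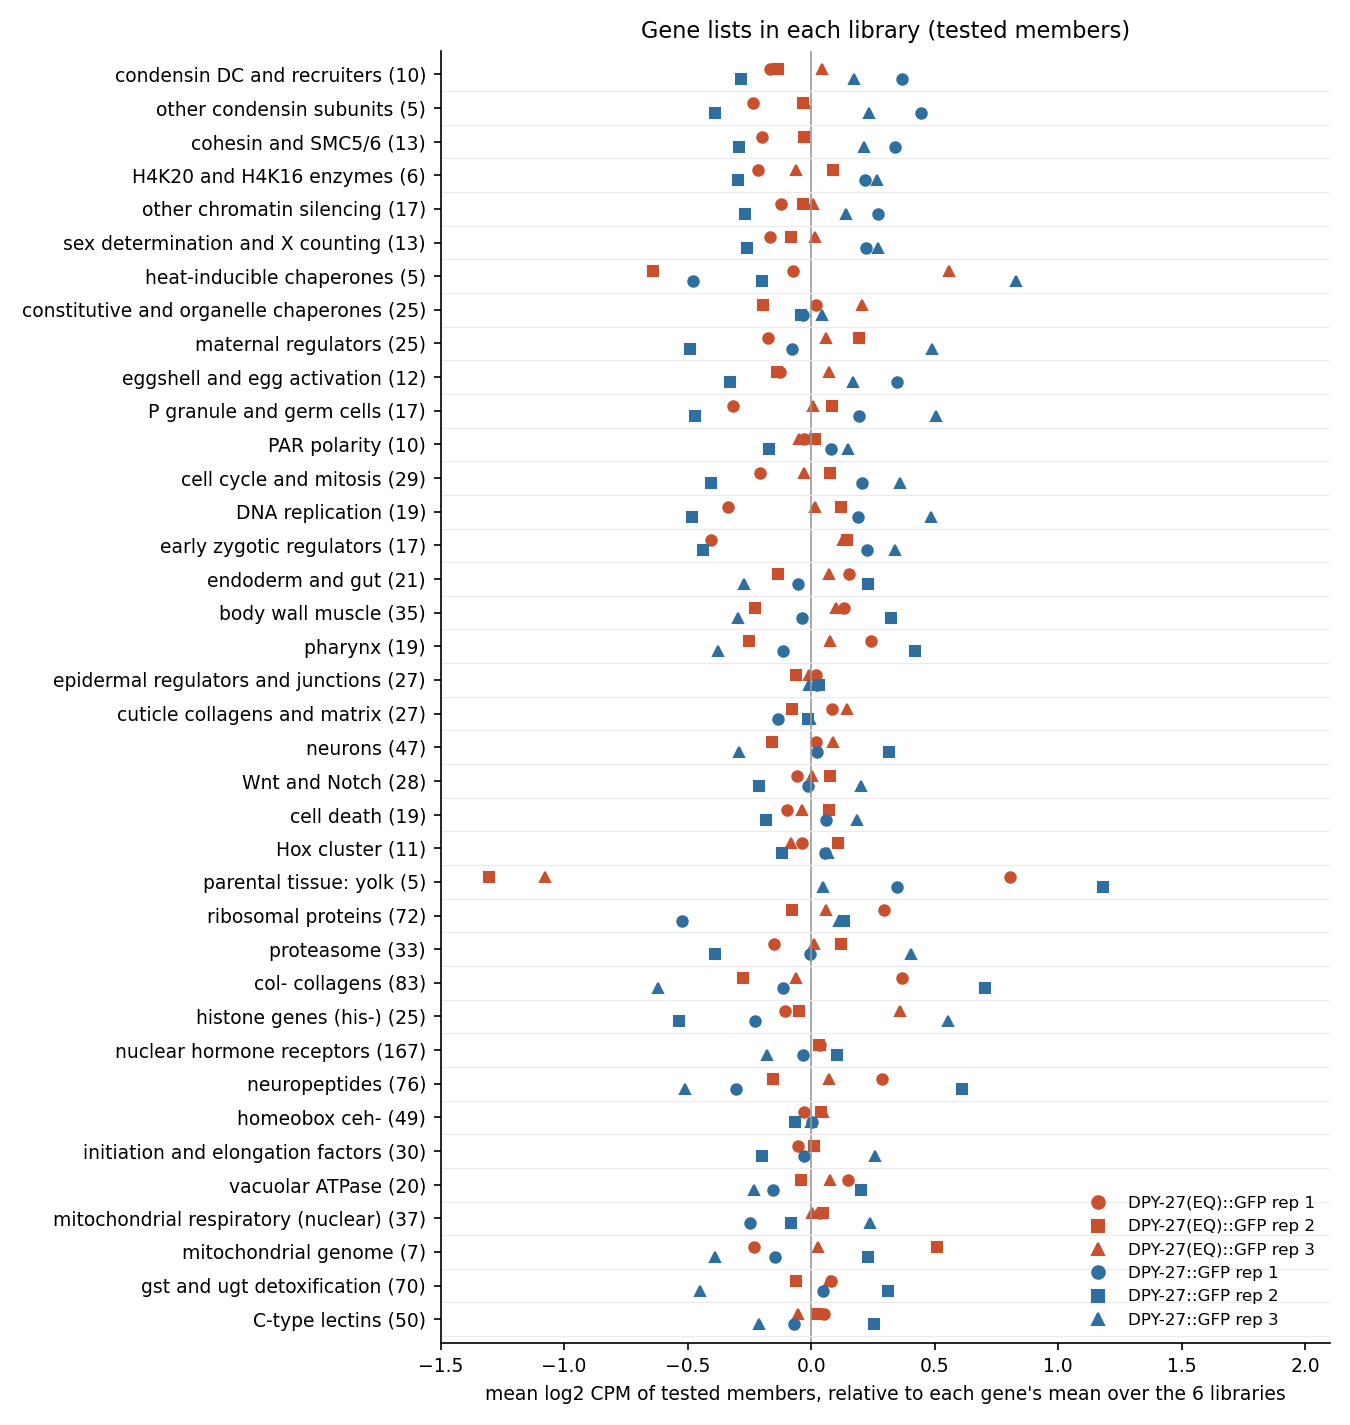
Mean log2 CPM of the tested members of each gene list (number in brackets), centred on each gene's 6-library mean, in each DPY-27(EQ)::GFP library (upper points of a row) and each DPY-27::GFP library (lower points), for the 38 lists with at least 5 tested members. The strains overlap in all 38 lists, and DPY-27::GFP replicates 2 and 3 lie at opposite ends of many of them.

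Housekeeping genes were nearly all bounded inside 2-fold when taken one by one. Of 72 ribosomal protein genes 70 had point estimates above 0, with a median of 0.17, yet 0 had an unadjusted p under 0.05. Their mean log2 CPM was 0.29, -0.08 and 0.06 in DPY-27(EQ)::GFP and -0.52, 0.13 and 0.11 in DPY-27::GFP, so that DPY-27::GFP replicate 1 was the low library, and without it the median was -0.02. All 72 intervals were inside 2-fold and 22 inside 1.5-fold. Proteasome genes gave 32 of 33 intervals inside 2-fold at a median of -0.07, and in all 33 DPY-27::GFP replicate 2 was the lowest of the 6 libraries. Translation initiation and elongation factors (30 of 30 inside 2-fold), the vacuolar ATPase (20 of 20) and nuclear genes of mitochondrial respiration (34 of 37) were bounded alike. isp-1, the Rieske iron-sulfur protein gene of complex III, was at 187, 179 and 194 CPM in DPY-27(EQ)::GFP and 178, 178 and 190.4 in DPY-27::GFP (0.04, 95% interval -0.25 to 0.32).

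Several large families with restricted expression were less well bounded than all genes tested, and so were the yolk genes, with 0 of 5 tested inside 2-fold. Of 156 col- collagen genes 83 were tested and 38 were inside 2-fold; of 102 neuropeptide genes 76 were tested and 39 inside. Genes for histones (10 of 25 tested inside 2-fold), C-type lectins (29 of 50) and detoxification enzymes of the gst and ugt families (42 of 70) were similar. Nuclear hormone receptors, mostly orphan transcription factors, did better, with 137 of 167 inside 2-fold and a median of 0.05. Histone genes are near-identical copies, and reads that match several places were not counted, so their values are uncertain. Over all 41 lists, 930 of 1168 tested members (79.6%) had an interval inside 2-fold, close to the share of all genes, and 5 had an unadjusted p under 0.05.

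Those 5 were col-64 (0.76), MTCE.34 of the mitochondrial genome (0.80), cpg-3 (-1.04), col-181 (-1.32) and vit-6 (-1.39), none of which passed the adjusted test. vit-6 encodes a vitellogenin, a yolk protein made in the intestine of the parent. It had 6.54, 1.59 and 1.603 CPM in DPY-27(EQ)::GFP against 7.18, 11.1 and 5.71 in DPY-27::GFP, overlapping in 1 library, and an interval of -2.61 to -0.17. The 5 tested yolk genes had a median log2 fold change of -1.39, the farthest from 0 of the 38 lists with at least 5 tested members. Of these genes 1 had an estimate above 0, and 4 had intervals reaching beyond 4-fold. Over the fits the yolk median ranged from -2.32 to -0.47. Yolk genes summed to 28.5, 8.19 and 10.4 plain CPM in DPY-27(EQ)::GFP and 20.5, 39.2 and 16 in DPY-27::GFP, a low level in both strains. Whether these reads came from parental tissue was not tested. The vitellogenin genes vit-1 to vit-5 are close copies and their separate counts are uncertain. Major sperm protein genes, the marker of parental sperm, summed to at most 1.09 plain CPM in any of the 6 libraries, and 19 of 30 had no read in all 6. The cpg-3 gene of an eggshell proteoglycan had 0.934, 0.741 and 1.26 CPM in DPY-27(EQ)::GFP and 2.19, 2.05 and 2.05 in DPY-27::GFP (95% interval -1.84 to -0.23), a level of few reads, and its exons overlap the opposite strand by a small stretch.

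Among all genes tested, the smallest unadjusted p in edgeR's test was 0.00139, for C18D4.6 on chromosome V, an uncharacterised gene. It had 53.7, 42.3 and 45.9 CPM in DPY-27(EQ)::GFP against 27.4, 31.2 and 25.3 in DPY-27::GFP. The log2 fold change was 0.75 (95% interval 0.37 to 1.13), and it would have needed 1.59 to be called as the only gene. The next was ptr-18, of the patched-related family of membrane proteins, with 269, 246 and 291 CPM in DPY-27(EQ)::GFP and 173, 211 and 162 in DPY-27::GFP (0.56, interval 0.22 to 0.90). Libraries that did not overlap were a condition for naming both genes. As single libraries were left out, the estimates ranged over 0.66 to 0.84 and 0.49 to 0.68. Picking genes by the smallest p on these libraries also favours a narrow range. The other 6 genes named in this direction were F34D10.3 (0.94), clc-15 (1.13), ubc-19 (0.54), C31H5.7 (1.24), B0546.4 (0.46) and metl-18 (0.56). Of these, ubc-19 and metl-18 overlap exons on the opposite strand.

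On the lower side the smallest unadjusted p belonged to ZK250.5, with 0.800, 0.635 and 1.12 CPM in DPY-27(EQ)::GFP against 1.95, 2.56 and 1.76 in DPY-27::GFP (-1.23, 95% interval -2.09 to -0.38). More reads lay behind F55F10.1, at 366, 352 and 361 CPM in DPY-27(EQ)::GFP and 595, 386 and 510.1 in DPY-27::GFP (-0.47, interval -0.86 to -0.08). Besides cpg-3, the other genes named in this direction for a small p without overlap included Y116F11A.1 (-0.92), Y47G6A.29 (-0.36) and cyh-1 (-0.42). The rest were rhr-1, of the Rhesus ammonium channel family (-0.78), and the cytochrome P450 gene cyp-35A5 (-0.74). Of the 40 genes with an unadjusted p under 0.05, 26 of the 28 higher and 9 of the 12 lower had libraries that did not overlap. Over all genes tested the shares were 2.42% higher and 1.38% lower. A small p on the same 6 libraries favours such separation, so it adds no support. The higher genes had a median level of 36.2 CPM and the lower ones of 3.89 CPM.

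X-linked genes, the targets of the complex, were compared with autosomal genes within each library. With log2 CPM centred per gene, the X-linked median less the autosomal median (chromosomes I to V) was 0.07, -0.08 and 0.07 in DPY-27(EQ)::GFP and -0.03, 0.16 and -0.16 in DPY-27::GFP. DPY-27::GFP libraries took both the highest and the lowest value. DPY-27(EQ)::GFP averaged 0.02 ± 0.09 and DPY-27::GFP -0.01 ± 0.16 (SD, n = 3 each). The difference of 0.03 had a 90% interval of -0.24 to 0.24, or 0.847-fold to 1.18-fold, from the 9 differences between libraries (two-sided exact permutation test, p = 0.9, the smallest possible p being 0.1). Leaving out 1 library moved the difference over -0.03 (without DPY-27::GFP replicate 3) to 0.11 (without DPY-27::GFP replicate 2), so its direction rested on single libraries.

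**Figure D4:**
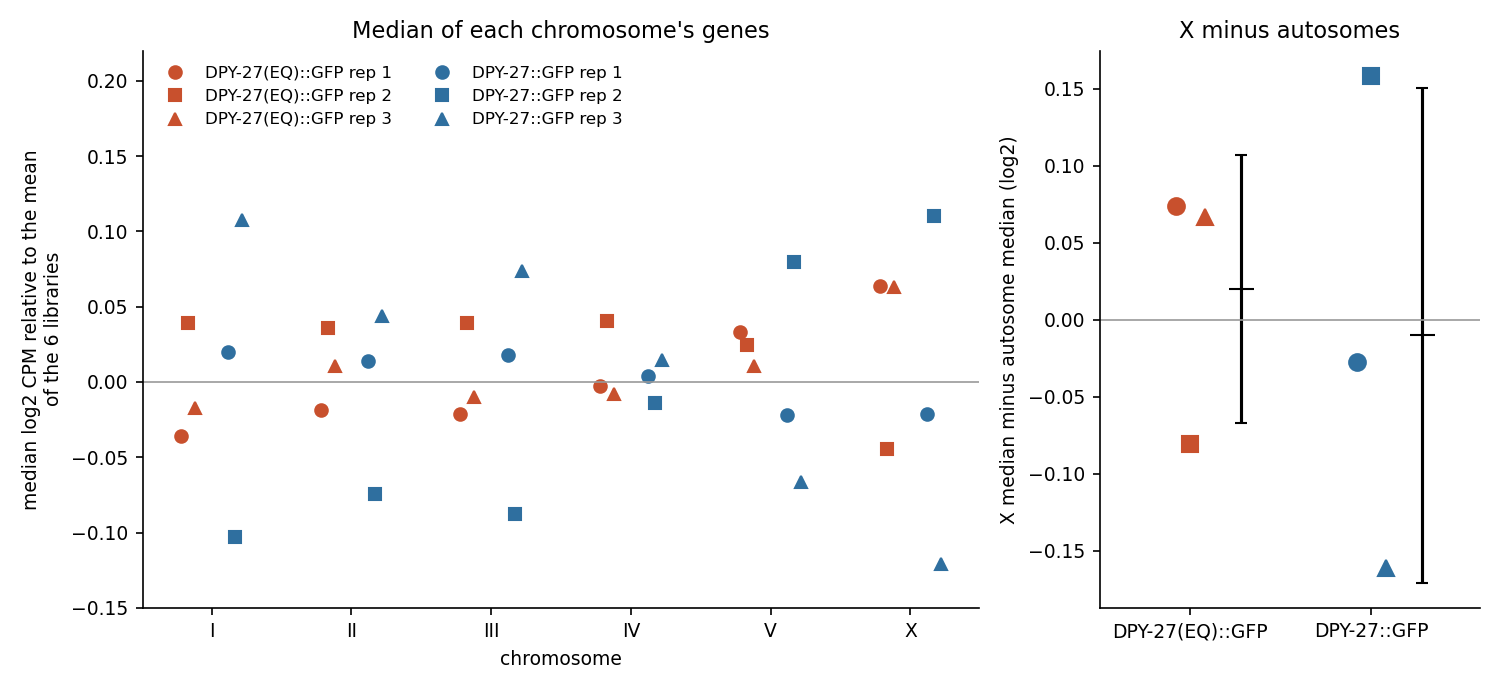
Left, median log2 CPM of each chromosome's tested genes in the 6 libraries, centred on the mean of each gene, with DPY-27(EQ)::GFP to the left of DPY-27::GFP; right, X median minus autosome median per library with the mean and SD of each strain (black). The X medians of DPY-27(EQ)::GFP (-0.04 to 0.06) lie inside those of DPY-27::GFP (-0.12 to 0.11).

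Gene by gene, 1858 of 2818 X-linked genes were tested, and 0 passed the test. At an unadjusted p under 0.05 there were 7 higher and 1 lower in DPY-27(EQ)::GFP, beside 20 higher and 11 lower among 10272 autosomal genes. The median log2 fold change was 0.03 on the X and -0.02 on the autosomes, and 55.7% of X-linked genes against 46.7% of autosomal genes had estimates above 0. Medians of single chromosomes ran from -0.03 on I to 0.03 on X. Condensin DC lowers X-linked expression, so the upper ends of the intervals are of most interest: a 2-fold higher level lay outside the interval of 1660 X-linked genes (89.3%), a 1.5-fold higher level outside that of 1023 (55.1%). For autosomal genes the 2-fold figure was 9341 (90.9%). Libraries did not overlap for 61 X-linked genes (3.28%) higher and 13 (0.70%) lower in DPY-27(EQ)::GFP, beside 233 (2.27%) and 155 (1.51%) on the autosomes and the shares of 2.42% and 1.38% over all genes.

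How large a difference could be missed varied with a gene's level. Genes were split into quartiles by mean CPM. In the lowest quartile, 0.852 to 6.65 CPM, the median half-width of the 95% interval was 0.84 on the log2 scale and 1211 of 3035 genes were inside 2-fold. In the second it was 0.57 with 2689 of 3034 inside, in the third 0.42 with 2951 of 3034, and in the highest, from 74.6 CPM, 0.37 with 2998 of 3034. Over all genes the median half-width was 0.52, a factor of 1.43 either way, and for 68 genes the interval reached beyond 4-fold. A 2-fold higher level lay outside the interval of 11006 genes and a 2-fold lower level outside that of 10747.

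The threshold for a call was higher than these intervals. To be called as the only gene at an adjusted p of 0.05, with its own spread, a gene needed an estimate of 2.16 on the log2 scale at the median, or 4.48-fold. This was 11.4-fold at the median of the lowest quartile and 2.91-fold in the highest. No gene of the 12137 could have been called alone on an estimate under 2-fold, and 6878 genes (56.7%) needed more than 4-fold. Only 18 genes had an estimate beyond 2-fold in either direction. Less is needed where many genes pass together. A further 8252 genes had too few reads to enter the test. With no filter on low counts 18504 genes were tested and 0 were called in edgeR's test, with 64 higher and 75 lower at an unadjusted p under 0.05.

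**Figure D5:**
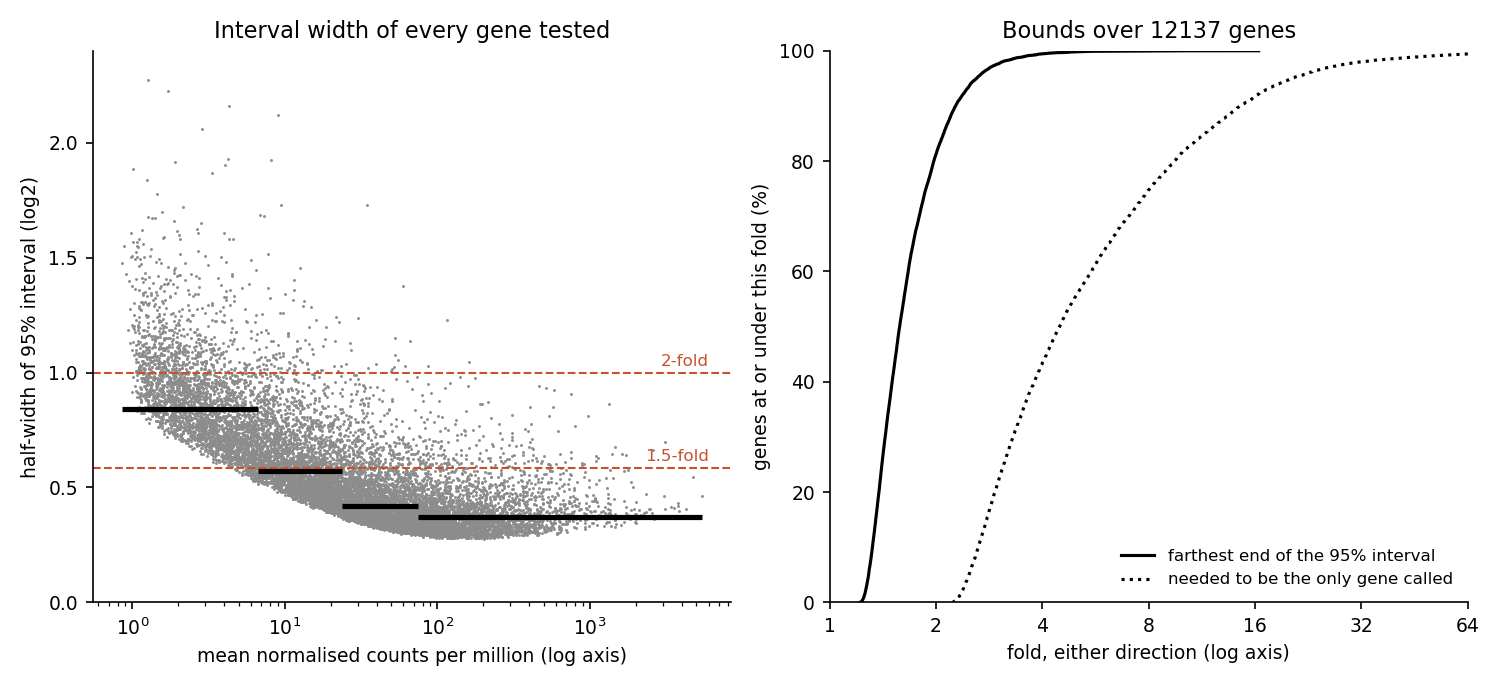
Left, half-width of the 95% interval (log2) against mean normalised CPM (log axis) for each of 12137 genes, with quartile medians (black bars, 0.84 to 0.37) and dashed lines at 2-fold and 1.5-fold; right, the share of genes (%) whose interval ends within a given fold in either direction (solid), and whose required fold for a sole call lies at or under it (dotted). The solid line reaches 81.1% at 2-fold and the dotted line starts beyond 2-fold.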

How the data were processed

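RNA was sequenced from 6 libraries of embryos, 3 per strain, at the depths given above. Unnormalised counts of reads on genes were deposited by the authors, both per library and as a merged table of identical values, and so were TPM values, used in alternatives only. The study describes mRNA-seq for a different strain, with Tophat alignment to WS220 and HTSeq counting. The submitters' processing notes name CASAVA 1.8, Cufflinks 2.2.0, HTSeq 0.6.1p1 and DESeq2. Deposited comparisons with wild type, holding fold changes and p-values, were not used, and 0 columns of per-sample values were left unmatched.

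Rows naming no gene held 12.8% to 21.2% of the reads of DPY-27(EQ)::GFP libraries and 12.6% to 13.5% of DPY-27::GFP libraries and stayed out of library sizes. The 20389 genes were filtered with filterByExpr, normalised with TMM and tested with edgeR 4.0.16 (R 4.3.3) on the 6 libraries. A 95% interval was the estimate plus or minus the t quantile times its standard error, which was taken from the test's p. The fold needed for a sole call was that giving a p of 0.05 over the number tested. Log2 CPM used a prior count of 2. limma 3.58.1 and DESeq2 1.42.0 served as alternatives, beside other normalisations, filters, left-out replicates and a replicate block. The fit was also run on simulated counts drawn with the same spread in both strains. DPY-27::GFP libraries spread more than DPY-27(EQ)::GFP libraries, so that run does not check the intervals of these data. No 2 libraries agreed within sampling noise. Of the genes, 19902 took their symbol from the WBcel235 annotation by sequence name, which also gave strand and exon overlap. Figures were drawn with matplotlib 3.10.9.

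Members and gene lists were chosen with earlier results of these data known. The genes named are all members of 3 lists (condensin DC and recruiters, other condensins, H4K20 and H4K16 enzymes) and hsp-16.41, from each other list the genes with the smallest p in each direction and with the narrowest interval, and the 8 smallest p in each direction among genes whose libraries did not overlap.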

Additional observations from a re-analysis of the deposited data

Results flagged for a closer look

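Reads outside the gene counts were more frequent in some DPY-27(EQ)::GFP libraries than in any DPY-27::GFP library. Reads on no annotated feature numbered 0.0429 per gene read in DPY-27(EQ)::GFP replicate 2 and 0.0826 in replicate 3, against at most 0.0407 in DPY-27::GFP. Reads without a unique position were at 0.179 per gene read in DPY-27(EQ)::GFP replicate 3, against at most 0.107 in DPY-27::GFP. Ambiguous reads were at 0.00919 per gene read in DPY-27(EQ)::GFP replicate 2, against at most 0.00869 in DPY-27::GFP. These reads entered no comparison, and their part in the results was not tested.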

How the results depend on the processing

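The count of 0 called genes was the same in all 15 alternatives. Genes with an interval inside 2-fold numbered 8207 to 11105 in 15 alternatives, against 9849, the highest on log2(TPM + 1). The alternatives tested 11112 to 18504 genes, so these counts do not share a base. With no filter on low counts 10308 of 18504 genes were inside 2-fold, against 9849 of 12137. The TPM fits were added to the count inside 2-fold after seeing the data. The X minus autosome difference of 0.03 ranged over -0.035 to 0.11 as single libraries were left out, turning negative only without DPY-27::GFP replicate 3, and stayed between 0.02 and 0.04 under other normalisations, filters and TPM pseudocounts. Of 138 named genes, 39 changed sign in at least 1 of 13 alternatives (TPM fits not counted), none of them among the 20 with an unadjusted p under 0.05. A small p on these same libraries favours a kept sign, so this adds no support for the 20. Replicate numbers did not pair the libraries: deviations of same-numbered libraries correlated at -0.28, -0.52 and -0.15, and no DPY-27(EQ)::GFP library correlated best with its own number. A fit with the replicate block called 0 genes, with 7 higher and 8 lower at an unadjusted p under 0.05, 8735 inside 2-fold and an X minus autosome difference of 0.03 (exact sign-flip p = 1, smallest possible 0.25). Intervals were widest in the lowest quartile of level, where reads were fewest and the spread between replicates was also larger (median SD 0.48 in DPY-27::GFP on the log2 scale, against 0.25 in the highest).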
